A study of Populus trichocarpa with 24 samples.

Results

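Fully expanded young leaves of black cottonwood (Populus trichocarpa) were compared with shoot tips, 3 RNA sequencing libraries of each, by their raw counts per gene. These 6 libraries were taken by tissue label from the 24 of the series, which also held phloem, primary root, differentiating xylem and 3 kinds of laser-captured wood cells. Leaf and shoot tip came from trees grown for 6 months in a greenhouse, carried no named allele or treatment, and their RNA was not amplified. The shoot tip sample reached down to the third internode, so it holds young stem as well as the apex. The labels do not say whether replicates came from separate trees or at what hour they were harvested. The p-values therefore measure only the spread between the sequenced samples, estimated jointly over the 15 tissue libraries.

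A shoot apex keeps a meristem that is held undifferentiated in part by class I KNOX homeobox proteins, and it forms new leaves, internodes and the first vascular strands. An expanded leaf has stopped most cell division, fixes carbon and exports sucrose. Expression of class I KNOX genes is known to be shut off as leaf primordia form, while growing organs import sucrose and split it with enzymes such as sucrose synthase.

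The table pairs no identifier with a gene name, and none of the 41335 identifiers was found in the RefSeq gene table of assembly P.trichocarpa_v4.1. Loci are therefore described by number and level, and gene groups by 20 short lists of 50 identifiers recalled from published poplar nomenclature. No annotation was at hand to check that each identifier belongs to its list, and names below are those of the lists. Marker lists chosen by product name, such as Rubisco, light harvesting proteins and histones, could not be applied, and the leaf and tip labels were checked with the KNOX list alone. Levels are CPM, counts relative to library sizes scaled for composition by TMM unless said otherwise, and they are not corrected for gene length.

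Library totals were 13023568, 30917688 and 16393363 counts in leaf replicates 1 to 3, and 17777537, 9405714 and 10445992 in the tips. Between 31849 and 33755 loci had a count in a library, and the ranges of the tissues overlapped. Counts were spread differently. In leaf the 10 loci with the most counts held 12.2%, 11.5% and 11.1% of a library, against 5.69%, 6.27% and 4.02% in the tip. Reaching 50% of all counts took 480, 570 and 661 loci in leaf and 1542, 1261 and 1240 in the tip. These groups did not overlap, and the exact two-sided permutation test gave p = 0.1, the smallest that 3 against 3 allows. This skew bears on every fold below through the scaling, since the TMM factors averaged 0.695 ± 0.048 in leaf and 1.07 ± 0.06 in the tip (SD, n = 3).

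Leaf and shoot tip differed at nearly 1 in 3 loci. Of 31308 loci tested, 5455 were higher in leaf and 3889 lower, where a call needed a change of 1 or more on the log2 scale and, by edgeR's quasi-likelihood test, an adjusted p under 0.05. That is 29.8% of tested loci called, 17.4% higher and 12.4% lower in leaf. For another 9741 loci (31.1%) the 95% interval of the log2 fold lay within 1 of 0, so a doubling in either direction was outside it. For 12223 the interval was wider or could not be computed. Among the tested loci 370 had 0 counts in all 6 libraries. Every leaf library lay above every tip library at 27.7% of loci, and every tip library above every leaf library at 20.4%. The balance of directions depended on the scaling: leaf-high loci made up 58.4% of calls with TMM, 44.9% with upper-quartile scaling and 28.8% on library totals alone, where the median log2 fold of all loci moved from 0.08 to -0.51. The leaf-high share was 58% with RLE scaling, 58% with DESeq2 and 53.9% with the 6 leaf and tip libraries alone. Leaf thus had more high loci with TMM and RLE scaling, and the tip with upper-quartile scaling and on library totals.

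**Figure D1:**
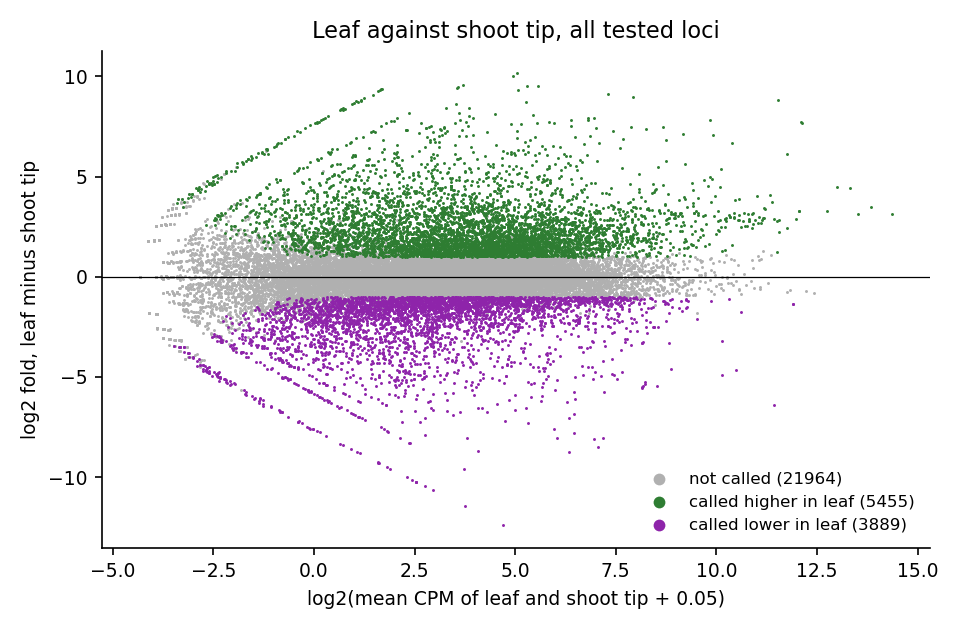
Log2 fold of leaf minus shoot tip (vertical axis) against the log2 of the mean CPM of both tissues (horizontal axis), 1 point per tested locus. Green points are the 5455 loci called higher in leaf and purple points the 3889 called lower. Among the most abundant loci on the right, green points outnumber purple ones, and the diagonal rows of points at low CPM are loci with few or no counts in the lower tissue.

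With TMM scaling, the share of loci called higher in leaf rose with mean level. That mean comes from the same leaf and tip libraries as the fold. A locus can thus reach a high level through a single tissue, so these shares are description. Of the 122 loci with a mean of 1000 CPM or more over both tissues, 59.8% were higher in leaf and 6.56% lower, with a median log2 fold of 2.48. Between 100 and 1000 CPM the shares were 29.9% higher and 13.7% lower, and between 10 and 100 CPM 19.7% and 8.94%. Between 1 and 10 CPM they were 16% and 16.7%. Below 1 CPM they were 8.29% and 11.7%. Only 73 of the 5455 leaf-high loci were at 1000 CPM or more. All 5455 together held 56.6%, 53.6% and 48.7% of all counts in the leaf libraries and 13.2%, 14.1% and 13.5% in the tip libraries. The 3889 tip-high loci held 20.4%, 19.4% and 18.3% of tip counts and 2.87%, 3.58% and 4.49% of leaf counts. These shares describe loci chosen by the same contrast and are not a test.

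**Figure D2:**
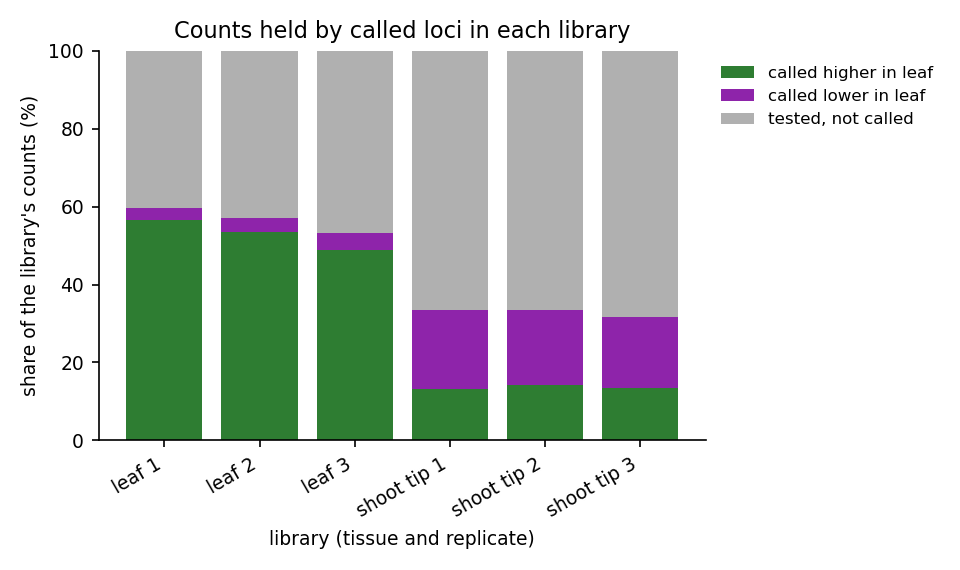
Share of each library's counts in percent (vertical axis) held by loci called higher in leaf (green), called lower in leaf (purple) and tested but not called (grey), for the 3 leaf and 3 shoot tip libraries (horizontal axis). Leaf-high loci fill 48.7% to 56.6% of a leaf library, and tip-high loci 18.3% to 20.4% of a tip library.

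Most differences were moderate. Of the leaf-high loci, 2686 differed 2- to 4-fold, 2085 differed 4- to 16-fold, 483 differed 16- to 64-fold and 201 more than that. Among tip-high loci the numbers were 2228, 1173, 365 and 123. In the class above 64-fold, 95 of the 201 leaf-high loci had at most 3 counts over the tip libraries, and 87 of the 123 tip-high loci had at most 3 over the leaf libraries. In each direction 48 of them had 0 counts in the lower tissue, where a fitted fold depends on the prior count.

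The 100 loci with the most CPM in each tissue showed how far the tissues share their main transcripts. Of the 100 in leaf, 79 were higher in leaf, 2 lower and 19 neither, and their median log2 fold was 2.87. Of the 100 in the tip, 20 were lower in leaf, 13 higher and 67 neither, with a median of -0.38. Each set was chosen by its level in 1 of the tissues, which tilts it toward that tissue. The sets shared 34 loci. The locus with the most leaf counts measured 42773, 36262 and 34364 CPM in leaf and 3140, 4912 and 5102 CPM in the tip, and a log2 fold of 3.11 (edgeR, adjusted p = 1.1e-04). It was also the seventh in the tip. By contrast the fifth locus of the tip measured 7221, 5787 and 3261 CPM there and 26.6, 104.5 and 58.8 CPM in leaf, where it ranked 3562nd. Its log2 fold was -6.42 (edgeR, adjusted p = 1.4e-06). These loci were picked by rank after their values were seen.

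The strongest contrasts among abundant loci had at most 15 counts in the lower tissue. They were the largest folds among called loci with a mean of at least 50 CPM in the higher tissue and no overlap of libraries, a rule that 1694 leaf-high and 660 tip-high loci met. Potri.001G242600 had 718, 1049 and 776 counts in leaf and 2, 0 and 0 in the tip. In CPM it was at 66.0 ± 18.6 in leaf (SD, n = 3), 1230 times the tip on pooled counts, with a 95% counting interval of 340 to 10100. Its means were 0.30 CPM in phloem, 0.10 in root and 0.44 in xylem. Potri.009G083200 had 673, 1167 and 630 counts in leaf, 0, 2 and 0 in the tip, and 0 CPM in phloem, root and xylem. Its leaf level was 62.0 ± 15.8 CPM, a ratio of 1190 to the tip on pooled counts with an interval of 330 to 9860. In both, counts came from all 3 leaf libraries and from a single tip library.

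In the other direction, Potri.013G143600 had 0 counts in every leaf library and 2010, 343 and 230 in the tips. At 99.5, 34.6 and 21.6 CPM its tip level was uneven between libraries. Taking 3 counts over the leaf group as the floor, it was at least 629-fold higher in the tip. The bound was 341 without tip replicate 1, 343 without leaf replicate 2 and 419 without leaf replicate 3. Its means in phloem, root and xylem were 0, 0 and 0.03 CPM. Potri.019G000600 measured 223, 145 and 113 CPM in the tips and 0.36, 0.18 and 0.66 CPM in leaf, and its log2 fold was -8.73 ± 1.42 (SE, edgeR, adjusted p = 2.1e-04). Its means were 0.27 CPM in phloem, 0.11 in root and 5.45 in xylem, the last above leaf. Tip replicate 1 was the highest tip library for both loci. Across the tip-high loci of 16-fold or more it also stood out, with 4.50% of its counts there against 2.56% and 1.99% in tip replicates 2 and 3. The edgeR adjusted p was 1.6e-08 for Potri.001G242600, 4.6e-06 for Potri.009G083200 and 7.2e-05 for Potri.013G143600.

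Loci of the leaf side and of the tip side sat differently among the other tissues. Of the leaf-high loci 72.7% had their highest mean of the 5 tissues in leaf, and in 60.2% every leaf library exceeded every library of the other tissues. Another 18.3%, 998 loci, were highest in primary root, 661 of them with every root library above all others. Of the tip-high loci 35.8% had their highest mean in the tip, 31.4% in phloem, 18.8% in root and 14% in xylem. In 19.2% every tip library exceeded every other tissue library. Leaf was the tissue with the lowest mean for 48.2% of tip-high loci, while the tip was lowest for 16.4% of leaf-high loci. Among loci not called, 31% were highest in root, 25.2% in xylem, 19.9% in phloem, 14.3% in leaf and 9.57% in the tip. The root shares of leaf-high and tip-high loci were thus both below that of uncalled loci. Leaf was lowest for 18% of uncalled loci and the tip for 16.7%. A locus called lower in leaf cannot peak in leaf, so the shares of called loci are set in part by the call and are given as description.

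**Figure D3:**
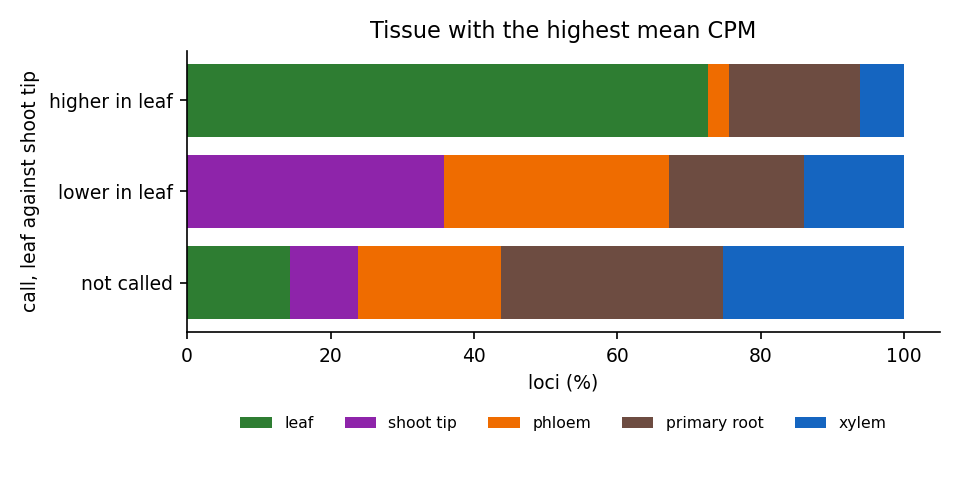
Percent of loci (horizontal axis) with their highest mean CPM in each of 5 tissues (colours), for loci called higher in leaf, called lower in leaf and not called. Leaf holds 72.7% of the first group, while the second is divided between shoot tip (35.8%), phloem (31.4%), root (18.8%) and xylem (14%).

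The tip-high loci of 16-fold or more had their highest mean in the tip more often, and also in root. They were chosen by their fold over leaf, so these shares are description. Of these 488 loci 57% had their highest mean in the tip, 24% in root, 12.3% in phloem and 6.76% in xylem. Their median levels were 6.30 CPM in the tip, 0.34 in phloem, 0.95 in root, 0.42 in xylem and 0.11 in leaf. At most 3 counts over the leaf libraries were found in 216 of them. The corresponding 684 leaf-high loci had a median of 14.6 CPM in leaf, 0.31 in the tip, 0.13 in phloem, 0.84 in root and 0.18 in xylem. Of these, 77.2% had their highest mean in leaf and 19.7% in root, and 202 had at most 3 counts over the tip libraries.

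Of the 50 listed loci 48 could be tested, 6 were higher in leaf, 13 were lower and 29 were neither, where 17.4% of all tested loci were higher and 12.4% lower. The other 2, listed as FLOWERING LOCUS T genes, which encode mobile signals for flowering and seasonal growth, had too few counts: 1 had 7, 16 and 1 counts in leaf and 0 in the tips, and the other had 0 in all 6 libraries. Medians of the lists below stand beside a median log2 fold of 0.08 over all tested loci. In bulk tissue, fewer cells of a type and less RNA per cell cannot be told apart.

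Meristem regulators gave the widest spread. The KNOX list holds 2 loci listed as class I genes, active in meristems and cambium, and 1 listed as a class II gene, known in Arabidopsis and poplar for restraining secondary wall formation. The first class I locus measured 168.6, 161 and 199.3 CPM in the tips and 1.07, 0.60 and 0.82 CPM in leaf. The second measured 33.4, 33.0 and 32.7 CPM in the tips and 0.60, 0.28 and 0.25 CPM in leaf. Both were nearly silent in leaf, at -7.79 ± 0.29 and -6.57 ± 0.32 on the log2 scale (SE; edgeR, adjusted p = 3.9e-09 and 1.6e-08). The class II locus went the opposite way, at 59.5, 34.2 and 45.2 CPM in leaf and 5.55, 5.86 and 5.55 CPM in the tips, and was higher in leaf by 3.03 ± 0.21 on the log2 scale (edgeR, adjusted p = 1.5e-07). No listed KNOX locus overlapped between tissues. Over all tested loci every leaf library lay above every tip library at 27.7%, and the reverse held at 20.4%.

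Class I KNOX transcripts were not at their highest in the tip. The means of the first locus were 346 CPM in phloem, 176.3 in the tip, 103.3 in xylem and 46.4 in root, and those of the second were 144.5, 33.0, 72.4 and 0.13 CPM in the same order. Leaf was the lowest tissue for the first, and root for the second.

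Class III HD-ZIP proteins set the upper side of leaves and pattern vascular tissue. All 6 listed loci had a negative log2 fold, from -0.19 to -1.79 with a median of -0.73, and 2 were lower in leaf, as were 12.4% of all loci. These 2 measured 61.8, 59.2 and 50.1 against 12.5, 21.3 and 15.3 CPM (log2 fold -1.79 ± 0.29, edgeR adjusted p = 1.9e-04), and 68.8, 76.9 and 86.2 against 19.2, 37.4 and 28.4 CPM (-1.44 ± 0.29, adjusted p = 0.0011), tips first. In 5 of 6 every tip library lay above every leaf library, where 20.4% of all loci did. Another locus was at -0.95 and not called, but was called at -1.44 without leaf replicate 3. With upper-quartile scaling and with the 6 leaf and tip libraries alone 3 of the 6 were lower, and on library totals 5 were, with a median of -1.34. The list summed to 238.3 ± 7 CPM in the tip and 121.3 ± 21.2 in leaf (SD, n = 3), ranges that do not overlap.

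**Figure D4:**
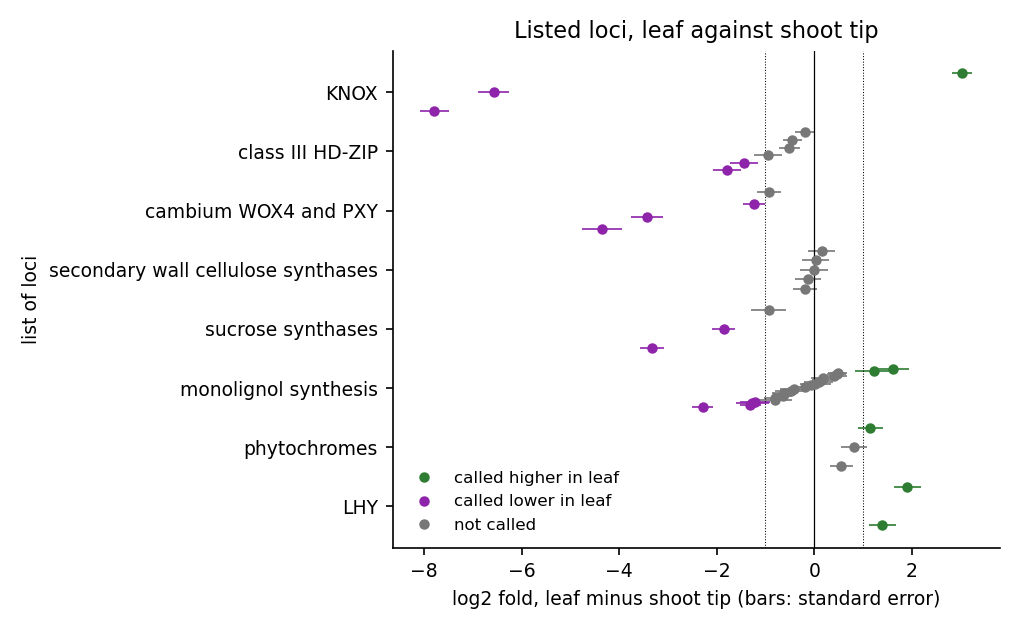
Log2 fold of leaf minus shoot tip with its standard error (horizontal axis) for 48 listed loci, grouped by list (vertical axis). Green marks loci called higher in leaf, purple those called lower and grey those not called, and dotted lines mark a log2 fold of 1 in each direction. The class I KNOX loci lie at -7.79 and -6.57, and the 5 secondary wall cellulose synthases lie around 0.

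Among cambium regulators, the 2 loci listed as WOX4, a homeobox factor that keeps cambial cells dividing, were far lower in leaf. The first measured 26.0, 57.3 and 72.0 CPM in the tips and 3.70, 5.59 and 4.86 in leaf. The second measured 14.9, 33.2 and 39.9 CPM in the tips and 1.19, 1.52 and 1.48 in leaf. These were changes of -3.43 ± 0.33 and -4.35 ± 0.41 on the log2 scale (edgeR, adjusted p = 2.4e-06 and 1.8e-06). Of the 2 loci listed as PXY, the receptor kinase that acts upstream of WOX4 in Arabidopsis, 1 was lower in leaf at -1.23 ± 0.22 (edgeR adjusted p = 4.6e-04). The other stood at -0.93 ± 0.24, under the fold minimum, and was called at -1.0 without tip replicate 2, at -1.20 with upper-quartile scaling, at -1.55 on library totals and at -1.05 with the 6 libraries alone. The 4 loci together reached 214.7 ± 30 CPM in the tip, well below the 863.9 ± 153 of phloem and 1014 ± 200 of xylem.

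Secondary wall cellulose synthases, which mark maturing xylem, did not separate the tissues with TMM scaling. The 5 loci summed to 148, 90.3 and 133.1 CPM in leaf and 85.9, 135.5 and 153.4 in the tips, and none was called. All 95% intervals of their log2 folds lay between -0.72 and 0.73 with TMM scaling. With upper-quartile scaling the folds ran from -0.46 to -0.12 and on library totals from -0.80 to -0.47, again with none called. On library totals the sums were 85.7 ± 19.5 in leaf and 132.1 ± 30.7 in the tip. Their ranges, 63.2 to 98.52 and 97.54 to 156.1, barely overlapped. Xylem stood at 9038 ± 1650 CPM, far above both. Tip replicate 1 was the lowest tip library here and for both WOX4 loci. Without it the folds of the 5 cellulose synthases ran from -0.40 to -0.03 with a median of -0.25, again with none called. Over all loci 5656 were then higher in leaf and 3759 lower.

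**Figure D5:**
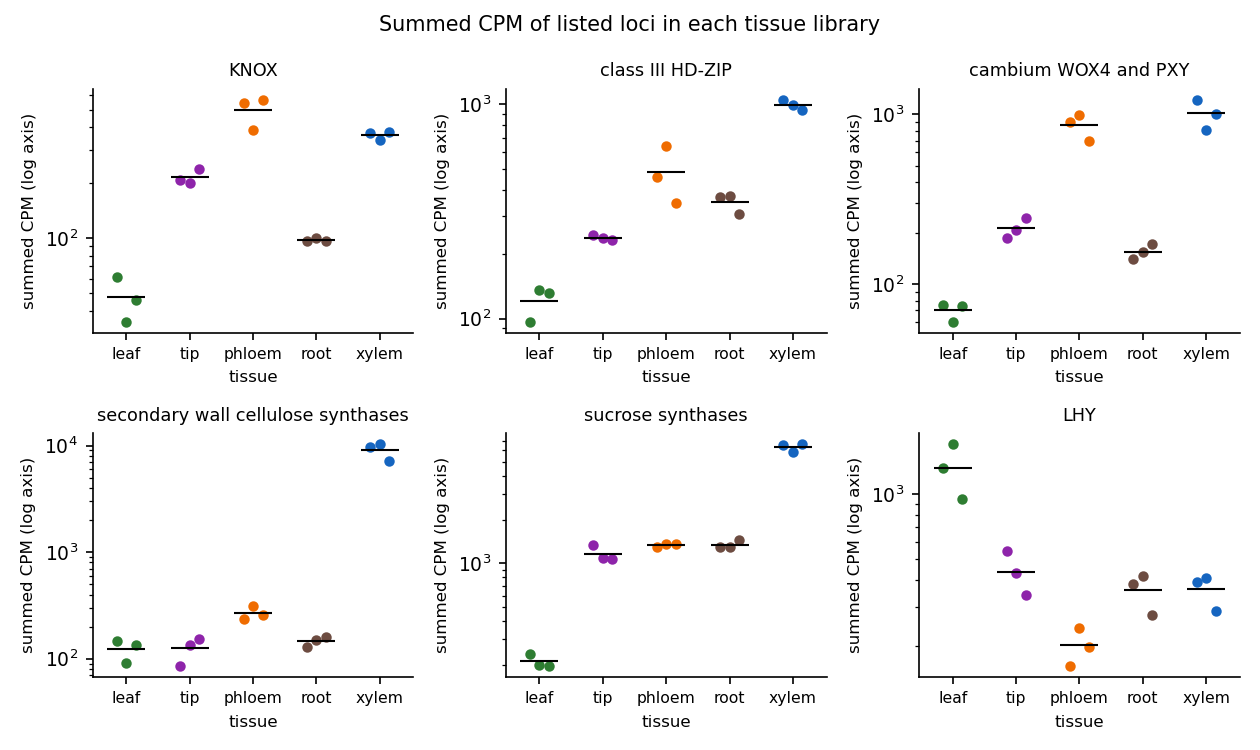
Summed CPM (vertical log axes) of 6 lists in each of 15 tissue libraries, with 1 point per library and a line at the mean of each tissue (horizontal axis). Leaf is the lowest tissue for the KNOX, class III HD-ZIP, cambium and sucrose synthase lists and the highest for LHY. For secondary wall cellulose synthases leaf and tip points overlap. The KNOX sum mixes both classes, and in leaf the class II locus holds 46.3 of its 47.5 CPM.

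Sucrose synthases cleave imported sucrose in growing and wood-forming tissue. The most counted of the 3 listed loci measured 1035, 727 and 704 CPM in the tips and 96.3, 72.3 and 77.5 CPM in leaf, -3.33 ± 0.25 on the log2 scale (edgeR, adjusted p = 2.6e-07). Another measured 133.2, 207.2 and 268.6 CPM in the tips and 55.9, 49.2 and 63.2 in leaf, at -1.86 ± 0.24 (edgeR, adjusted p = 2.6e-05). The last was at -0.93 ± 0.36 and was not called. Every tip library lay above every leaf library there, as at 20.4% of all tested loci. It was called at -1.16 without tip replicate 3 and at -1.21 with upper-quartile scaling. On library totals it was called at -1.58, and with the 6 libraries alone at -1.06. In sum the tips held 1167 ± 153 CPM, near the 1343 ± 35.6 of phloem and 1349 ± 80.1 of root, while leaf held 212.7 ± 23.6. Xylem stood far above all of these at 6328 ± 433 CPM. The last of the 3 loci did not share this, at 72.1 CPM in xylem and 74.6 in leaf.

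Monolignol synthesis makes the precursors of lignin, and its first enzyme, phenylalanine ammonia-lyase, also feeds flavonoids and other phenolics. Of 5 ammonia-lyase loci 2 were higher in leaf and none lower. The first measured 3186, 5267 and 3869 CPM in leaf and 1870, 1632 and 1736 in the tips (log2 fold 1.23 ± 0.40, edgeR adjusted p = 0.022). The second measured 1614, 1268 and 1199 CPM in leaf and 431.2, 393.4 and 504.7 in the tips (1.62 ± 0.32, edgeR adjusted p = 0.0011). The other 3 had log2 folds from 0.02 to 0.48. The call of the first locus was lost without leaf replicate 2 (1.0), tip replicate 2 (1.19) or tip replicate 3 (1.23), with upper-quartile scaling (0.96) and on library totals (0.62). On library totals the second stood at 0.99, under the fold minimum.

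Of the 17 later loci of the pathway none was higher in leaf, 4 were lower and 13 had a negative log2 fold, with a median of -0.61, beside 17.4% of all loci higher and 12.4% lower. Whether the later loci differ from the ammonia-lyases was not tested. The largest was that of a locus listed as a coniferaldehyde 5-hydroxylase, which directs the pathway to syringyl lignin. It measured 77.5, 56.3 and 57.9 CPM in the tips and 15.4, 12.2 and 11.7 in leaf, -2.29 ± 0.21 on the log2 scale (edgeR, adjusted p = 1.3e-06). The others lower in leaf were a 4-coumarate CoA ligase (-1.31 ± 0.22), a cinnamate 4-hydroxylase (-1.27 ± 0.34) and a caffeoyl-CoA O-methyltransferase (-1.22 ± 0.31). Without tip replicate 1 the cinnamate 4-hydroxylase was at -0.81 and no longer called. A cinnamoyl-CoA reductase at -0.81 was called at -1.05 without leaf replicate 1. Over all 22, 4 were called lower and 2 higher with TMM, 6 and 1 with upper-quartile scaling, and 11 and 0 on library totals.

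Sum and median of the list differed in direction. The whole list summed to 7224 ± 642 CPM in leaf and 4330 ± 314 in the tip, whereas the median log2 fold of its members was -0.30. The 2 leaf-high ammonia-lyases alone made up 5467 ± 934 CPM in leaf and 2189 ± 145 in the tip. The other 20 loci summed to 1756 ± 340 CPM in leaf and 2141 ± 169 in the tip, ranges that overlap. On library totals the whole list stood at 5019 ± 563 in leaf and 4635 ± 517 in the tip, which also overlap.

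Both listed LHY loci were higher in leaf. LHY is a morning-phased MYB-like repressor of the plant circadian clock. One listed locus measured 516, 710.4 and 401 CPM in leaf and 190.4, 134.9 and 106.5 in the tips, and the other 800.1, 981.6 and 547 against 352.4, 295.7 and 234.9. The log2 folds were positive, 1.91 ± 0.28 and 1.40 ± 0.27 (edgeR, adjusted p = 7.8e-05 and 8.2e-04). On library totals the latter was at 0.76 and not called. The hour of harvest, on which LHY transcript depends, is not in the labels and cannot be told apart from tissue. Leaf also stood above phloem (200 ± 40.3 CPM summed), root (359.8 ± 74.9) and xylem (363.2 ± 64.7), at 1319 ± 372.

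Phytochromes are the red and far-red light receptors, and 1 of the 3 listed loci was called. Over all tested loci 29.8% were called and 17.4% were higher in leaf, so this count is near the general share. All 3 had positive log2 folds of 0.56, 0.82 and 1.15 with TMM scaling, and the last was called higher in leaf, at 77.5, 77.8 and 51.6 CPM against 44.5, 28.4 and 19.9 in the tips (SE 0.26, edgeR adjusted p = 0.0024). That call was lost without tip replicate 3 (0.92), with upper-quartile scaling (0.88) and on library totals (0.50), where the lowest of the 3 folds was -0.07. Without tip replicate 1 the locus at 0.82 was called as well, at 1.16. Tip replicate 1 was the highest tip library for all 3. The summed level was 135.1 ± 21.5 CPM in leaf and 73.3 ± 25.3 in the tip, with root above both at 174.3 ± 21.4, phloem at 117.6 ± 15.9 and xylem at 59.4 ± 9.06.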

How the data were processed

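For all 24 libraries the authors deposited raw counts, unnormalized whole numbers, in a single gene table. The submitters' processing notes name TopHat. No source used here gives the counter, build, annotation or strandedness, and near-identical or overlapping genes may share reads.

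Tests used edgeR 4.0.16 under R 4.3.3, and matplotlib 3.10.9 drew the figures. The 15 tissue libraries were fitted together after filterByExpr (31308 loci, biological coefficient of variation 27.45%), with TMM scaling and the quasi-likelihood test of leaf minus shoot tip, Benjamini-Hochberg adjusted over all tested loci. Estimated within leaf alone the biological coefficient of variation was 30.69%, and within the shoot tip alone 29.08%. The standard error of a log2 fold is its size over the root of the F statistic. Intervals and floors from counts cover counting error only. The captures were amplified and were left out. DESeq2 1.42.0 was an alternative.

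Replicates differed by more than sampling noise (chi-square per degree of freedom 13.2 to 50.6), and none was merged. Members and lists were chosen with earlier results of these data known. The rule for named genes called for product names and otherwise for at most 2 identifiers in each direction. The 48 lists by product name could not be applied, since no names were matched, and length and GC checks were void.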

Additional observations from a re-analysis of the deposited data

How the results depend on the processing

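The total of 9344 calls stayed within 1.5 times under every alternative run. RLE scaling, DESeq2, no filter and the fit without phloem replicate 3, whose 10 loci with the most counts held 27.6% of its total and which was set aside after seeing the data, gave 9359, 9352, 9768 and 9283 calls. On library totals 3277 loci were higher in leaf and 8118 lower, and the median log2 fold over all tested loci was -0.511. That median was -0.161 with upper-quartile scaling, 0.012 with no filter and -0.017 with the 6 leaf and tip libraries alone, which gave 8511 calls. Leaving out 1 library at a time gave 8327 to 9814 calls, 4976 to 5748 higher and 3351 to 4066 lower, and medians of 0.015 to 0.121. With no fold minimum there were 13129 calls. Among the named and listed loci no called direction reversed. Replicate numbers were not taken as pairing the samples: deviations of same-numbered libraries correlated at -0.0905, 0.105 and 0.239, and the fit with a replicate block gave 9400 calls, 9093 of them shared in direction with the fit without it. Among the alternatives run, scaling moved the balance of directions most. Depth was not varied. By mean level, loci under 1 CPM were called least often.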

Other observations

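Leaf was nearer to the shoot tip than to any other tissue in overall profile, with a median Pearson r of 0.837 across loci on log2(CPM + 1), against 0.665 with phloem, 0.612 with xylem and 0.537 with root. The tip was about as near to phloem (0.814) as to leaf, and further from xylem (0.715) and root (0.593). Loci are not independent replicates, and these values are descriptions. Within the tip, replicates 2 and 3 correlated at 0.984 and replicate 1 with them at 0.968 and 0.953, while leaf pairs lay between 0.965 and 0.973.

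Some of the loci with the most counts came in pairs of nearly the same value. Among the 100 loci with the most CPM in leaf, 4 pairs had counts within 10% of each other in each of the 15 tissue libraries, and the same number was found among the 100 of the tip. Of the 8 leaf loci in such pairs 6 were called higher in leaf and 2 lower, beside 79 and 2 of all 100. Of the 8 tip loci in such pairs 2 were called higher in leaf and 2 lower, beside 13 and 20 of all 100. Whether these are near-identical copies that share reads was not tested.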
